A study of Homo sapiens with 6 samples.

Results

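The integrin subunits and laminin chains were taken from the table of normalized counts as rows whose symbol is that of an integrin α subunit (ITGA), an integrin β subunit (ITGB) or a laminin α, β or γ chain (LAMA, LAMB, LAMC). Reported here are 35 of the 30267 rows, of which 24 are integrins (16 α and 8 β subunits) and 11 are laminin chains. The rows were matched by symbol and not by a measured value, but the genes were chosen with earlier results of these data known. Of the 35 genes, 29 (19 integrins and 10 laminin chains) reached 10 normalized counts in 3 or more of the 6 libraries and were tested, and none of the 29 passed that filter through 1 group alone. ITGA8 and ITGAL had no row under these symbols in the table of normalized counts, so they were not analysed here.

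RNA was sequenced from SW839, an established cell line of renal cell carcinoma (RCC), after ribosomal RNA had been depleted. In 3 libraries (shRNF25) the cells carried a lentiviral hairpin against RNF25, an E3 ubiquitin ligase that the study links to NF-κB activity, and in 3 libraries (shControl) they carried the pLKO vector; per the study's methods, stable lines of both kinds were selected with puromycin. The treatment text of the samples, controls included, speaks of the shRNF25 plasmid, so the groups rest on titles, genotype labels and library names. The series calls the samples biological triplicates, the shRNF25 library names share 1 stem, and the names of the control libraries differ from one another in form, so that batch and knockdown cannot be told apart where they coincide.

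Integrins are receptors made of 1 α and 1 β subunit that span the cell membrane and tie the cytoskeleton to the matrix outside the cell. The α subunit largely sets the ligand, and families of integrins bind collagen, laminin, the RGD motif of fibronectin and related proteins, or counter-receptors on blood cells. Laminins are trimers of 1 α, 1 β and 1 γ chain and form the sheet of the basement membrane to which epithelial cells, those of the kidney tubule included, attach. LAMA3 and LAMB3 are chains of a laminin that anchors epithelia through the ITGA6-ITGB4 integrin of hemidesmosomes, while LAMA5 pairs with LAMB1 or LAMB2 and LAMC1 in the basement membranes of many tissues.

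Between 18647460 and 19943154 reads per library fell on genes. RNF25, the hairpin's target (chromosome 2, 218663864 to 218672411, minus strand), had normalized counts of 694, 534 and 536 in shControl replicates 1 to 3 and 214, 246 and 265 in shRNF25 replicates 1 to 3, so that all shRNF25 libraries lay below all shControl libraries at 41.1% of the control mean (log2 fold change -1.27, standard error 0.15, limma adjusted p = 0.000585). The control libraries differed more from one another (Pearson correlations across genes of 0.976 to 0.988) than the shRNF25 libraries did (0.994 for each pair). For the 29 tested integrin and laminin genes the median coefficient of variation was 22.5% in shControl and 6.28% in shRNF25, beside 18.2% and 6.70% over all tested genes. The shControl libraries had the larger coefficient for 25 of the 29 genes, and shControl replicate 3 held the highest control value for 14 of them. Of the 11 markers of renal and epithelial cells in the table, KRT8, KRT18, KRT19 and EPCAM were at 4205 normalized counts or more in each library and CDH2 at 1470.0 to 1968. PAX8 lay at 76.7 to 140.3, MME at 11.8 to 46.4 and CA9, a marker of clear cell RCC, at 1.85 to 50.7, while CDH6 and LHX1 had 12.95 or fewer in each library. VIM, the intermediate filament vimentin, was the 1 marker of this list that was called, with 448, 416 and 203 in shControl and 804, 882 and 810.2 in shRNF25 (log2 fold change 1.31, standard error 0.262, limma adjusted p = 0.00805). Its part in the integrin and laminin results was not tested.

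Of the 29 tested genes, 6 were lower and 3 were higher in shRNF25 when 0.05 was set as the limit of the adjusted p and 1.5 as the smallest fold change. These limits follow the study's methods. The p-values are from limma, fitted over all 16554 tested genes with Benjamini-Hochberg adjustment. By the same criteria 7.1% of all tested genes were lower, 8.65% were higher and 15.7% were called in either direction, against 31.03% of the integrin and laminin genes. The genes called lower were ITGA5, ITGA2, ITGB3, ITGB6, LAMB3 and LAMB1, and those called higher were ITGA10, LAMA2 and ITGAM. ITGAV, ITGB1 and LAMA3 passed the adjusted p-value but not the fold change. Groups without overlap were seen for 15 of the 29 genes (10 lower and 5 higher in shRNF25), beside 42.5% of all tested genes. The median log2 fold change was 0.14 over the 19 integrins and -0.13 over the 10 laminin chains, beside -0.01 over all tested genes. In bulk RNA, fewer cells that express a gene and less of its RNA per cell cannot be told apart. Leaving out shRNF25 replicate 1, 2 or 3 left 748, 824 or 831 of all genes called higher in place of 1432. Without shControl replicate 3, the highest control library for ITGA5, ITGB3, ITGB6 and LAMB3, the log2 fold changes were -1.35 for ITGA5, -0.89 for ITGA2, -0.86 for ITGB3, -0.70 for ITGB6, -0.65 for LAMB3 and -0.64 for LAMB1, all still called lower.

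**Figure D1:**
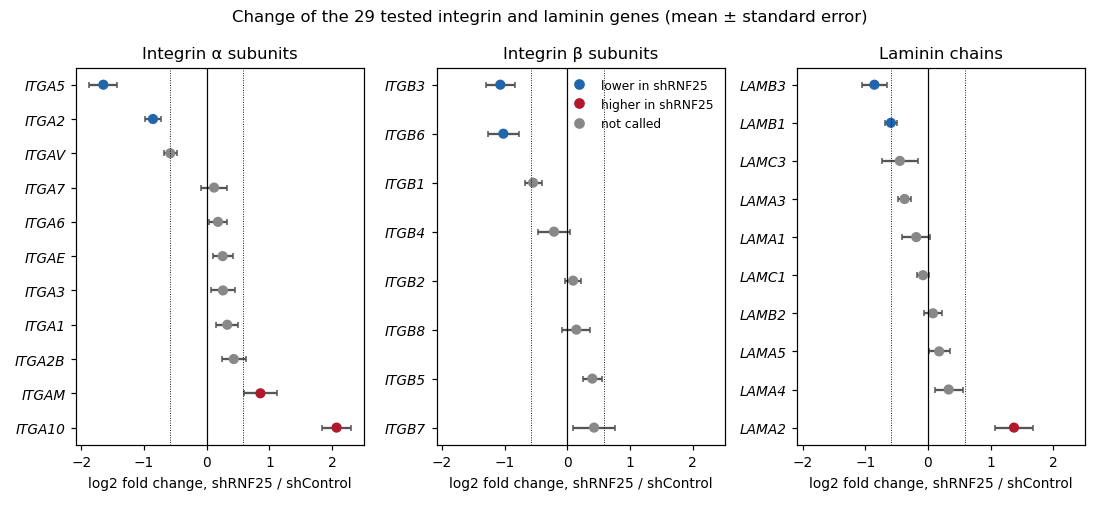
Log2 fold changes (x axis, shRNF25 over shControl, normalized counts + 1) of the 29 tested genes in 3 panels, with limma's standard errors as bars and the 1.5-fold limits as dotted lines. The 6 genes called lower reach -1.65 (ITGA5) and the 3 called higher reach 2.07 (ITGA10), while the grey genes lie between the dotted lines.

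The promoters of 25 of the 35 genes were found in RefSeq (GRCh38.p14), with 32 transcription starts, and the 250 bases before each start were searched on both strands. The NF-κB binding motif (κB), of interest because the study concerns NF-κB, was found for ITGA1, ITGA5, ITGA10, ITGA11 and LAMB3, and in 5.21% of all 35116 promoters. The AP-1 motif TGANTCA was found for LAMA3 and LAMB3, and in 6.57% of all promoters. The GC box GGGCGG was found for 13 of the 25 genes, and in 42.6% of all promoters. The shares over all promoters count starts and not genes. Counted so, the κB motif lay before 6, the AP-1 motif before 2 and the GC box before 16 of the 32 starts. The motifs were searched separately and their matches may overlap. A match is a description of the letters and not of binding, which was not measured here. The κB matches of the 3 called genes are shown, a pair of overlapping LAMB3 matches by the first of them, in capitals in windows of 30 bases, read along the gene's strand from 5′ to 3′. ITGA5 and LAMB3 were called lower and ITGA10 was called higher, so the match was present before RefSeq starts of genes that moved in either direction. The ITGA5, ITGA10 and first LAMB3 windows lie inside the gene as GENCODE 29 annotates it, downstream of its first annotated base.
ITGA5 (chr12:54419329-54419358, minus strand): cagggacccaGGAATGCCCCcccgccagcc
ITGA10 (chr1:145910156-145910185, minus strand): tccttggtctGGGGCTCCCCacagttcccc
LAMB3 (chr1:209652417-209652446, minus strand): gagccgggagGGGAGACCCCcacattcaag
LAMB3 (chr1:209652465-209652494, minus strand): cacccagccaGGGAGTCTCCagaggtgagg

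AP-1 matches lay before a RefSeq start of LAMA3 and of LAMB3, the α and β chains of the epithelial anchoring laminin, and are in capitals here. Each of these starts has its window inside the gene as GENCODE 29 annotates it, downstream of the first annotated base. LAMB3 was called lower, and LAMA3 passed the adjusted p-value at less than a 1.5-fold change.
LAMA3 (chr18:23872884-23872913, plus strand): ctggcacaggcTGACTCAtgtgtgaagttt
LAMA3 (chr18:23872940-23872969, plus strand): ccttcctcaccTGAGTCAggcaggcccggg
LAMB3 (chr1:209651423-209651452, minus strand): gtcagccactcTGACTCAttcactttgggc

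Longer stretches directly before the annotated gene, without bases of any GENCODE 29 exon, are given for 4 genes called lower, with κB and GC box matches in capitals. ITGA2 and LAMB1 held GC boxes, LAMB3 held a GC box on the opposite strand and a κB match, and ITGB6 held none of the 3 motifs.
ITGA2 (chr5:52989102-52989325, plus strand): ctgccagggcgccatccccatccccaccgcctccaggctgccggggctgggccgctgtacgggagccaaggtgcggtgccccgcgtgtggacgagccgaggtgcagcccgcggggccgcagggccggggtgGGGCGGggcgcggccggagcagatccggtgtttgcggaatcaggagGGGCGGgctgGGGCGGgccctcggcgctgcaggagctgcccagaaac
ITGB6 (chr2:160200314-160200522, minus strand): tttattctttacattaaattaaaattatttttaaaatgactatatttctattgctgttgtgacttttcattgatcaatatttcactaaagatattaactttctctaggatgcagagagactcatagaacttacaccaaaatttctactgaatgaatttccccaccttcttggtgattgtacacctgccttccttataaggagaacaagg
LAMB1 (chr7:108003256-108003411, minus strand): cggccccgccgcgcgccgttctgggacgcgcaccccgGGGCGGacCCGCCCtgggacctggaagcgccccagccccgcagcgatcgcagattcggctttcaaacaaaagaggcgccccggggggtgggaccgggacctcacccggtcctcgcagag
LAMB3 (chr1:209652467-209652675, minus strand): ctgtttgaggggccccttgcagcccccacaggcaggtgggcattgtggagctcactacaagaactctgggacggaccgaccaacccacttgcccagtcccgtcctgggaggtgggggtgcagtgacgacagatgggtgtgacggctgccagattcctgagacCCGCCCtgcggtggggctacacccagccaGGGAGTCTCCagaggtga

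The receptors for fibronectin and other RGD proteins held the largest fall among the integrins. ITGA5, which pairs with ITGB1 as the classical fibronectin receptor (chromosome 12 of GRCh38, 54395261 to 54419460, minus strand, GENCODE 29), had normalized counts of 2095, 2195 and 4011 in shControl replicates 1 to 3 and 896, 775 and 857 in shRNF25 replicates 1 to 3. All shRNF25 values were below all control values, and shControl replicate 3 stood far above the other controls. The mean fell to 30.5% of control (log2 fold change -1.65, standard error 0.223, limma adjusted p = 0.00124), and the call held under each of the 16 alternative fits, with log2 fold changes of -1.82 to -1.35. ITGAV, the α subunit shared by several RGD receptors, had 2100.3, 1966 and 2286 in shControl and 1435, 1391 and 1409 in shRNF25, without overlap (log2 fold change -0.58, standard error 0.102, limma adjusted p = 0.0043). Its change was just below the 1.5-fold limit, which it passed without shControl replicate 1, at -0.59 (adjusted p = 0.00075), without shControl replicate 2, at -0.63 (adjusted p = 0.00869), and without shRNF25 replicate 1, at -0.59 (adjusted p = 0.0307). ITGA2B, the α subunit of the platelet fibrinogen receptor, had 57.5, 81.1 and 61.5 in shControl and 95.7, 81.3 and 91.5 in shRNF25, and its difference did not pass (log2 fold change 0.43, 95% interval 0.0027 to 0.86, limma adjusted p = 0.139).

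Of the β subunits grouped as partners of ITGAV, ITGB3 and ITGB6 were called lower and ITGB5 and ITGB8 were not called. ITGB3, the β subunit of the vitronectin receptor and of the platelet receptor, had 86.2, 67.7 and 119.8 in shControl and 42.8, 41.6 and 40.99 in shRNF25. The shRNF25 libraries lay within 2 normalized counts of one another and below each control, and the gene fell to 45.8% of the control mean (log2 fold change -1.07, standard error 0.228, limma adjusted p = 0.0105). In the annotation 51.6% of the exon bases of ITGB3 are shared with AC068234.1, an annotated gene on the same strand, so its count depends on how shared reads were assigned. ITGB6, an epithelial subunit known for activating latent TGF-β, had 358, 385 and 719 in shControl and 249, 218 and 217 in shRNF25, again without overlap and with shControl replicate 3 the highest. It fell to 46.8% of the control mean (log2 fold change -1.02, standard error 0.242, limma adjusted p = 0.0169). In the annotation ITGB6 shares 20.6% of its exon bases with AC092153.1 on the same strand, so its count also depends on that assignment. AC092153.1 had 2.21 normalized counts or fewer in each library. The ITGB6 call was lost without shRNF25 replicate 1, 2 or 3, at log2 fold changes of -1.08 (adjusted p = 0.0555), -0.99 (adjusted p = 0.0654) and -0.99 (adjusted p = 0.0677). ITGB5, another vitronectin receptor subunit, had 1625, 2076 and 2455 in shControl and 2682, 2584 and 2740.4 in shRNF25; its shRNF25 values were all above the controls, but the difference did not pass (log2 fold change 0.40, 95% interval 0.07 to 0.73, limma adjusted p = 0.0852). ITGB8, which also binds latent TGF-β, had 686, 476 and 348 in shControl and 583, 475 and 555 in shRNF25, and the groups overlapped (log2 fold change 0.14, 95% interval -0.36 to 0.64).

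Among the collagen receptors, which all pair with ITGB1, 1 subunit fell and 1 rose. ITGA2 (chromosome 5, 52989326 to 53094779, plus strand) had 7047, 5379 and 5764 in shControl replicates 1 to 3 and 3551, 3265 and 3163 in shRNF25 replicates 1 to 3. Each shRNF25 library was below each control, here with shControl replicate 1 the highest, and the mean fell to 54.9% of control (log2 fold change -0.86, standard error 0.124, limma adjusted p = 0.00167). ITGA10, a receptor subunit best known from cartilage (chromosome 1, 145891208 to 145910189, minus strand), had 43.1, 85.2 and 61.5 in shControl replicates 1 to 3 and 263, 258 and 257 in shRNF25 replicates 1 to 3. The shRNF25 values were nearly equal and all above the controls, and the mean rose 4.10-fold (log2 fold change 2.07, standard error 0.23, limma adjusted p = 0.00044). Both calls held under each of the 16 alternative fits at the 1.5-fold limit, with log2 fold changes of -0.94 to -0.71 for ITGA2 and 1.83 to 2.31 for ITGA10. ITGA1 had 277, 181 and 260.1 in shControl and 277, 320.5 and 291 in shRNF25 and its groups overlapped (log2 fold change 0.33, 95% interval -0.07 to 0.73). ITGA11 was not tested, at 4.104 normalized counts or fewer in each library.

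**Figure D2:**
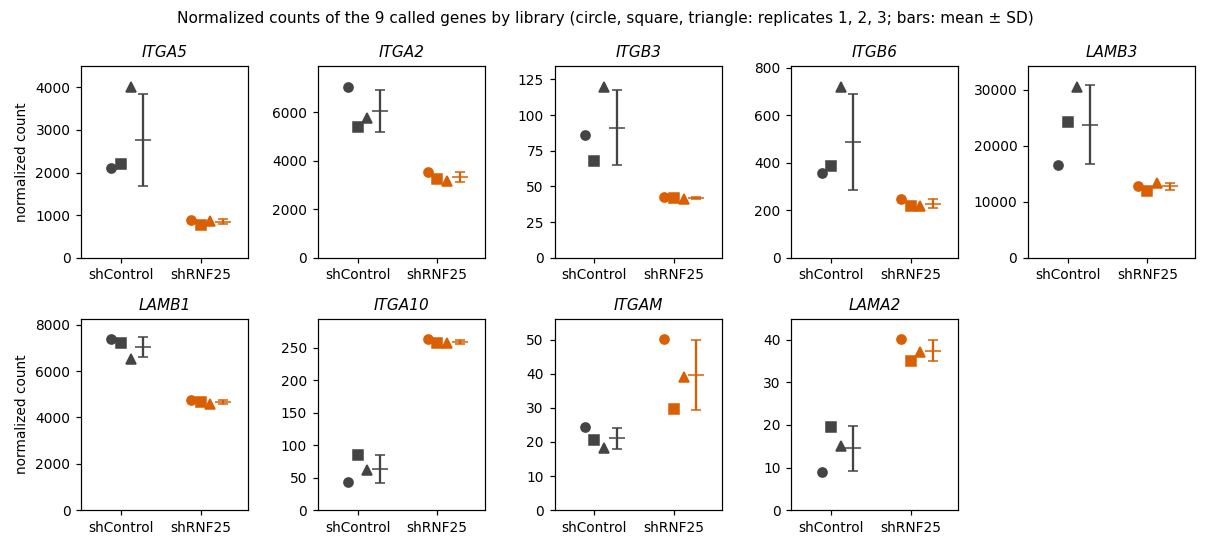
Normalized counts (y axis, from 0, a scale of its own per panel) of the 9 called genes in the 3 shControl libraries (grey) and the 3 shRNF25 libraries (orange), with the mean ± SD beside the points. The groups do not overlap in any panel, and shControl replicate 3 (triangle) is the highest control for 4 of the 6 genes called lower.

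Of the integrin subunits that bind laminin, 4 were grouped here: ITGA3, ITGA6, ITGA7 and ITGB4. None of the 4 was called by limma, beside 15.7% of all genes, too few genes to set apart from that share. Of these 4, 0 passed at an unadjusted p below 0.05, and edgeR and DESeq2 called 0 as well. ITGB1, which pairs with ITGA3, is not in this group and is given in the next paragraph. ITGA3, the main partner of ITGB1 for laminins with LAMA3 or LAMA5, had 24206, 33286 and 43123 in shControl and 39475, 39015 and 38621 in shRNF25, and the shRNF25 values lay inside the spread of the controls (log2 fold change 0.26, 95% interval -0.17 to 0.68, limma adjusted p = 0.363). With quantile normalization ITGA3 was called higher, at 0.70 (adjusted p = 0.0334). ITGA6, the hemidesmosomal α subunit, had 4234, 3013 and 2849 in shControl and 3650.2, 3761 and 3844 in shRNF25 (log2 fold change 0.18, 95% interval -0.16 to 0.52, limma adjusted p = 0.427). Among the 16 alternative fits its adjusted p went down to 0.00434, at less than a 1.5-fold change in each. Its partner ITGB4 had 25042, 25819 and 52402 in shControl and 29895, 27468 and 26486 in shRNF25. For ITGB4 shControl replicate 3 had about the sum of the other controls, and the shRNF25 values were all above those of shControl replicates 1 and 2. Its log2 fold change was -0.21 (95% interval -0.78 to 0.36, limma adjusted p = 0.583), and it was 0.18 with quantile normalization and 0.13 without shControl replicate 3, so no direction is given. ITGA7, a laminin receptor of muscle, had 287, 476 and 416 in shControl and 510.3, 376 and 378 in shRNF25, with overlapping groups (95% interval of the log2 fold change -0.34 to 0.58).

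ITGB1, the β subunit of most of these receptors, had 41938, 30239 and 34329.9 in shControl replicates 1 to 3 and 24257, 24224 and 23762 in shRNF25 replicates 1 to 3. All shRNF25 values were below all controls, at 67.8% of the control mean, which passed the adjusted p-value but not the 1.5-fold limit (log2 fold change -0.55, standard error 0.135, limma adjusted p = 0.0203). Without shControl replicate 2 the gene passed both, at -0.66 (adjusted p = 0.0133). It missed the adjusted p-value with quantile normalization, at -0.21 (adjusted p = 0.248), and without shRNF25 replicate 1, 2 or 3, at -0.55 (adjusted p = 0.0846), -0.55 (adjusted p = 0.0832) and -0.54 (adjusted p = 0.0947). The pseudogene ITGB1P1, a separate row, had 86.2, 81.1 and 133 in shControl and 111, 79.4 and 91.5 in shRNF25 (log2 fold change -0.07, limma adjusted p = 0.863). How reads that match both were counted is not given in the sources used here.

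The subunits known from leukocytes were few in reads, apart from ITGB2 and ITGAE. ITGAM, which pairs with ITGB2 on myeloid cells, had 24.3, 20.5 and 18.3 in shControl replicates 1 to 3 and 50.1, 29.6 and 39.1 in shRNF25 replicates 1 to 3. The groups did not overlap and the mean was 188% of control (log2 fold change 0.86, standard error 0.263, limma adjusted p = 0.0465), but ITGAM was called in only 5 of the 15 alternative fits that gave it a value. Its log2 fold change and adjusted p without 1 library were 0.84 (adjusted p = 0.0944) without shControl replicate 2, 0.77 (adjusted p = 0.0818) without shControl replicate 3, and 0.67 (adjusted p = 0.202), 1.05 (adjusted p = 0.0585) and 0.85 (adjusted p = 0.148) without shRNF25 replicate 1, 2 and 3. ITGB2, the shared β subunit of leukocyte integrins, had 2146, 2382 and 2744 in shControl and 2836, 2445 and 2454 in shRNF25 (log2 fold change 0.09, 95% interval -0.18 to 0.37). These levels stood beside few reads for leukocyte markers: PTPRC, the pan-leukocyte phosphatase, had 3.81 to 14.6 normalized counts, and the 8 leukocyte markers in the table summed to 43.1 to 60.5 in shControl and 29.5 to 50.1 in shRNF25. CD3E was at 1.08 or fewer and SPI1 at 4.104 or fewer in each library.

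The antisense gene of ITGB2 was called higher. ITGB2-AS1, whose exons share 4.46% of the exon bases of ITGB2 on the opposite strand, had 48.6, 51.3 and 75.5 in shControl and 149, 147 and 147 in shRNF25. It rose without overlap (log2 fold change 1.35, standard error 0.197, limma adjusted p = 0.00184), while ITGB2 was not called. The difference between both changes was not tested, the libraries were stranded, and whether reads were counted by strand is not given in the sources used here. AC078883.1, antisense to ITGA6, was called lower, with 36.5, 38.0 and 43.2 in shControl and 21.0, 19.4 and 21.9 in shRNF25 (log2 fold change -0.88, limma adjusted p = 0.0194). ITGB1-DT, on the strand opposite to ITGB1, was lower without overlap and was not called (-0.54, adjusted p = 0.0668). These 3 genes are no members of the set and were named after their values were seen. ITGAE, which binds E-cadherin, had 283, 373 and 259 in shControl and 374, 332 and 375 in shRNF25 and ITGB7 had 13.3, 21.5 and 24.8 in shControl and 36.4, 25.9 and 19.1 in shRNF25, both with overlapping groups, and ITGB7 shares 42.1% of its exon bases with ZNF740 on the opposite strand. ITGA4 and ITGA9, which bind VCAM1 among others, and the leukocyte subunits ITGAD and ITGAX were not tested, at 12.9 normalized counts or fewer in each library.

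Among the laminin chains the β chain of the epithelial anchoring laminin fell. LAMB3 (chromosome 1, 209614870 to 209652466, minus strand) had 16489, 24213 and 30525 in shControl replicates 1 to 3 and 12877, 11994 and 13349 in shRNF25 replicates 1 to 3. All shRNF25 libraries were below all controls, and among the controls replicate 1 was closest to them. The mean fell to 53.7% of control (log2 fold change -0.85, standard error 0.198, limma adjusted p = 0.0155). The LAMB3 call was lost with quantile normalization, at -0.55 (adjusted p = 0.0713), without shControl replicate 2, at -0.82 (adjusted p = 0.0543), and without shRNF25 replicate 1, 2 or 3, at -0.86 (adjusted p = 0.0642), -0.81 (adjusted p = 0.067) and -0.89 (adjusted p = 0.0524).

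LAMA3, the α chain of that laminin, had 11089.8, 10744 and 12895 in shControl and 9177, 8706 and 8867 in shRNF25. The groups did not overlap, at 77.02% of the control mean, and the change passed the adjusted p-value but not the 1.5-fold limit (log2 fold change -0.37, standard error 0.109, limma adjusted p = 0.0388). LAMA3 missed the adjusted p-value in 9 of the 16 alternative fits, among them quantile normalization, at -0.14 (adjusted p = 0.387), edgeR, at -0.34 (adjusted p = 0.0583), the replicate block, at -0.37 (adjusted p = 0.0794), the fit without shControl replicate 3, at -0.29 (adjusted p = 0.0635), and those without shRNF25 replicate 1, 2 or 3, at -0.39 (adjusted p = 0.121), -0.36 (adjusted p = 0.163) and -0.37 (adjusted p = 0.156). The whole gene is counted in 1 row, so the short and long LAMA3 transcripts were not separated. The hemidesmosomal partners of this laminin, a list of 7 genes of which 5 were tested, held 0 called genes with limma, edgeR or DESeq2 (beside 15.7% of all genes with limma), too few genes to set apart from that share, and 1 at an unadjusted p below 0.05 with limma, and their median log2 fold change was 0.14. That 1 was ERBIN, whose shRNF25 values all lay below the controls (log2 fold change -0.47, limma adjusted p = 0.0963). PLEC, the plakin that links ITGB4 to keratins, had 48499, 63345 and 85579 in shControl and 69808, 76349.9 and 74916 in shRNF25, and KRT14 was at 1.03 or fewer in each library.

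LAMB1, the β chain of the widely expressed laminins (chromosome 7, 107923799 to 108003255, minus strand), had 7368, 7209.9 and 6535 in shControl replicates 1 to 3 and 4755, 4655 and 4592 in shRNF25 replicates 1 to 3. Each shRNF25 value was below each control value and the replicates of either group were close, with shControl replicate 3 here the lowest control. The mean fell to 66.3% of control, just past the fold limit (log2 fold change -0.59, standard error 0.0985, limma adjusted p = 0.0034). LAMB1 kept an adjusted p below 0.05 under each alternative fit and fell short of 1.5-fold under 7 of 16: -0.43 with quantile normalization, -0.52 after rescaling on well-expressed genes, -0.56 with edgeR, -0.58 with DESeq2, -0.56 and -0.57 without shControl replicate 1 and 2, and -0.58 without shRNF25 replicate 3. LAMB2, the other β chain of these laminins, had 5311, 6886 and 7487 in shControl and 7329, 6558 and 6747 in shRNF25 and overlapped (log2 fold change 0.08, 95% interval -0.23 to 0.39), as did LAMA5, their α chain, with 16694, 23435 and 27013 in shControl and 25695, 24418 and 24479.7 in shRNF25 (log2 fold change 0.18, 95% interval -0.20 to 0.56). LAMC1, the common γ chain, had 3179, 3156 and 3155 in shControl and 2897, 3097 and 3002 in shRNF25. Its control values were the closest of any tested integrin or laminin gene, the shRNF25 values were all slightly lower, and the difference did not pass (log2 fold change -0.08, 95% interval -0.29 to 0.13, and 0.060 with quantile normalization).

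LAMA2, the α chain of muscle and nerve laminins, was the 1 laminin chain that rose, from few reads. It had 8.84, 19.5 and 15.1 in shControl replicates 1 to 3 and 40.1, 35.1 and 37.2 in shRNF25 replicates 1 to 3, without overlap, and the mean was 2.59 times that of control (log2 fold change 1.37, standard error 0.306, limma adjusted p = 0.0128). The call was lost without shRNF25 replicate 1, at 1.32 (adjusted p = 0.067), and without shRNF25 replicate 3, at 1.38 (adjusted p = 0.0555). LAMA4, a chain of vascular basement membranes, had 275, 252 and 468 in shControl and 462, 366 and 384 in shRNF25 and overlapped through shControl replicate 3, without which it was called higher, at 0.61 (adjusted p = 0.0209). LAMA1 had 24.8 to 35.9 and LAMC3 35.5 to 88.2 normalized counts, with overlapping groups. LAMB4 was not tested, at 2.16 or fewer in each library.

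To compare genes with one another, each normalized count was divided by the length of the gene's annotated exons in kilobases, and each gene's share of its class (integrin α, integrin β, laminin α or laminin β) was taken within a library. These shares do not depend on the scaling of the library. Within a class they add up to the whole, so the share of a gene also moves when other genes of the class move. The counts of ITGA3, ITGB2, LAMA5 and LAMB2, whose shares were larger in shRNF25, themselves overlapped between the groups. Shares are means ± SD over 3 libraries, and the two-sided exact permutation test of 3 against 3 libraries cannot give a p below 0.1, which every share without overlap reached. ITGA3 made up most of the α subunits, at 61.7% ± 7.76 in shControl and 72.9% ± 0.373 in shRNF25, with no overlap. The shares of ITGA2 (14.4% ± 4.15 in shControl and 7.69% ± 0.36 in shRNF25), ITGA5 (6.53% ± 1.399 in shControl and 2.03% ± 0.133 in shRNF25) and ITGAV (4.77% ± 0.63 in shControl and 3.15% ± 0.0257 in shRNF25) were lower in each shRNF25 library than in each control, and that of ITGA6 overlapped (9.79% ± 3.698 in shControl and 10.5% ± 0.409 in shRNF25). The summed level of the α class per kilobase was 5474 ± 946 in shControl and 5463 ± 74.7 in shRNF25, with overlap.

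Among the β subunits ITGB1 (50.9% ± 10.9 in shControl and 44.4% ± 1.26 in shRNF25) and ITGB4 (41.9% ± 10.7 in shControl and 45.7% ± 1.18 in shRNF25) made up most of the class, and both overlapped. The controls ranged widely here, with an ITGB1 share of 61.2%, 52.1% and 39.5% in shControl replicates 1, 2 and 3. ITGB5 (2.73% ± 0.567 in shControl and 4.59% ± 0.235 in shRNF25) and ITGB2 (3.06% ± 0.49 in shControl and 4.19% ± 0.218 in shRNF25) had larger shares in each shRNF25 library than in each control. The summed level of the β class per kilobase was 11835 ± 2430.2 in shControl and 9033 ± 332 in shRNF25, without overlap.

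The composition of the laminin α and β classes also differed between the groups. In the α class the share of LAMA5 was 65.2% ± 4.602 in shControl and 72.9% ± 0.175 in shRNF25 and that of LAMA3 33.5% ± 4.55 in shControl and 25.4% ± 0.177 in shRNF25. In the β class LAMB3 had 72.8% ± 4.903 in shControl and 63.3% ± 1.31 in shRNF25 and LAMB2 14.03% ± 0.971 in shControl and 23.3% ± 0.954 in shRNF25, while LAMB1 had 13.2% ± 3.97 in shControl and 13.4% ± 0.585 in shRNF25. The groups did not overlap for any of these except LAMB1, so that LAMA3 and LAMB3 each had a smaller share of its class in every shRNF25 library than in every control. The summed level per kilobase was 2387 ± 431 in shControl and 2388 ± 71.02 in shRNF25 for the α chains, with overlap, and 6885 ± 1611 in shControl and 4293 ± 179 in shRNF25 for the β chains, without overlap.

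**Figure D3:**
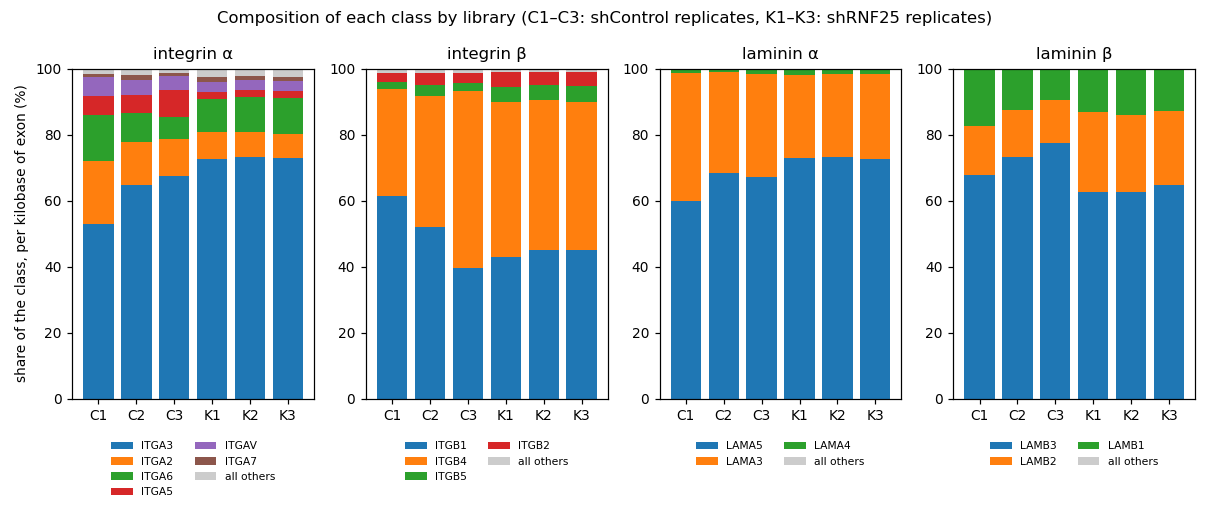
Share of each gene in its class (y axis, percent of the summed normalized count per kilobase of exon) in the 3 shControl (C1 to C3) and the 3 shRNF25 libraries (K1 to K3), with genes under 1% in both groups pooled. The shRNF25 bars are nearly alike, while the shControl bars differ, most for ITGB1 and ITGB4.

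Ratios between chains were compared within each library for 11 pairs, as log2 of 1 normalized count + 1 over the other, and groups did not overlap for 7 of them (4 lower and 3 higher in shRNF25). Among single genes, 42.5% of all tested had groups without overlap, and no such share was taken over pairs of genes. Each of the 7 pairs holds a gene whose own groups did not overlap, so these ratios are not separate from the changes given above. The ratio of LAMA3 to LAMA5, the α chains of the anchoring and the widely expressed laminins, was -0.59, -1.13 and -1.07 in shControl and -1.49, -1.49 and -1.47 in shRNF25 in replicates 1, 2 and 3. Each shRNF25 value was below each control value, and the mean of the shRNF25 libraries differed by -0.55 on the log2 scale. LAMB2 to LAMB1 was -0.11 ± 0.337 in shControl and 0.56 ± 0.065 in shRNF25 (SD), higher in each shRNF25 library. LAMB3 to LAMB1, both of which were called lower, was 1.71 ± 0.532 in shControl and 1.45 ± 0.0874 in shRNF25, with overlap (two-sided exact permutation p = 0.5), as was LAMA4 to LAMA5 (p = 0.8).

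Among the integrins, ITGA2 to ITGA3 was -2.44 ± 0.585 in shControl and -3.55 ± 0.0709 in shRNF25 and ITGA5 to ITGB1 was -3.73 ± 0.614 in shControl and -4.84 ± 0.111 in shRNF25, both lower in each shRNF25 library than in each control. Relative to ITGAV, ITGB3 was lower (-4.56 ± 0.3 in shControl and -5.05 ± 0.0212 in shRNF25), ITGB5 was higher (-0.06 ± 0.266 in shControl and 0.92 ± 0.0361 in shRNF25) and ITGB8 was higher (-2.12 ± 0.555 in shControl and -1.40 ± 0.134 in shRNF25), each without overlap. ITGB6 to ITGAV overlapped (-2.19 ± 0.462 in shControl and -2.63 ± 0.0908 in shRNF25, p = 0.2 by the exact permutation test). ITGB4 to ITGA6, the hemidesmosomal pair, was 2.56, 3.10 and 4.20 in shControl and 3.03, 2.87 and 2.78 in shRNF25 in replicates 1, 2 and 3. The shRNF25 values lay within the range of the controls (p = 0.6 by the exact permutation test). The p-values of the 11 ratios were not adjusted, since none could be below 0.1.

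**Figure D4:**
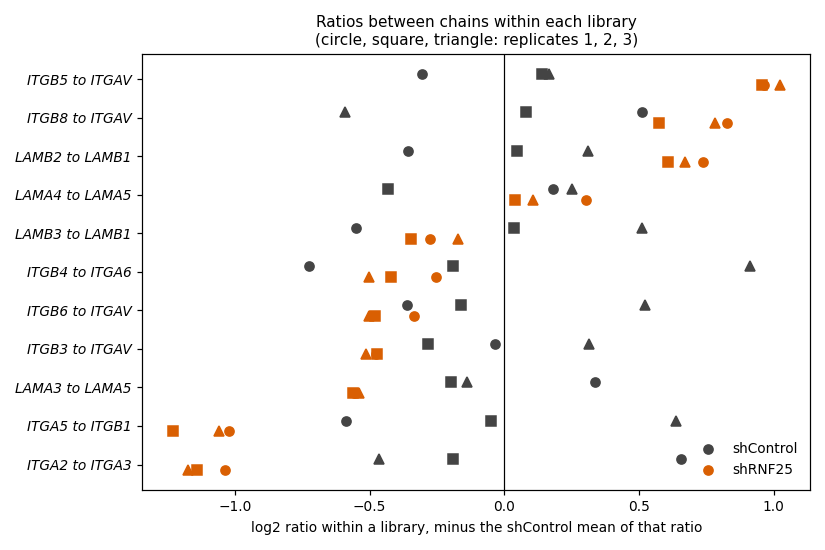
Log2 ratios of 11 gene pairs in each library (x axis, minus the shControl mean of that ratio), with shControl in grey and shRNF25 in orange. The orange points lie apart from the grey ones for 7 pairs, at differences of -1.12 (ITGA2 to ITGA3) to 0.98 (ITGB5 to ITGAV).

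Calls were frequent among the matrix proteins and other ligands that integrins bind. Of 24 tested genes on this list, 6 were lower and 7 were higher (54.2%, beside 15.7% of all genes), with a median log2 fold change of 0.09. This list and the other partner lists were chosen with earlier results of these data known. Their shares of called genes are thus descriptions and no tests. FN1, the fibronectin bound by ITGA5-ITGB1, had 56278, 49268 and 30894 in shControl and 9437, 8450.1 and 8539 in shRNF25, and fell without overlap (log2 fold change -2.32, standard error 0.201, limma adjusted p = 0.00013). TGFBI, a secreted adhesion protein, had 317, 344 and 691 in shControl and 23.7, 26.8 and 20.02 in shRNF25 and fell most on the list (log2 fold change -4.12, standard error 0.286, limma adjusted p = 3.61e-05). THBS1, a thrombospondin, fell as well (log2 fold change -1.93, limma adjusted p = 1.73e-05), as did the growth factor TGFB2 (-1.50, adjusted p = 0.00171), whose relatives TGFB1 and TGFB3 carry the RGD motif in their latent form. TNC, a tenascin (-1.45), and CCN1 (-1.01) were the other genes called lower.

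The genes of this list that rose were EDIL3, a ligand of ITGAV integrins, with 88.4, 67.7 and 34.5 in shControl and 430.1, 402 and 417 in shRNF25 (log2 fold change 2.79, standard error 0.292, limma adjusted p = 0.000326), FGB, the fibrinogen β chain, with 3.32, 4.104 and 5.396 in shControl and 38.3, 29.6 and 29.5 in shRNF25 (log2 fold change 2.67), TNXB (1.83) and CCN2 (1.67). CCN1 and CCN2, matricellular proteins of 1 family, thus moved in opposite directions, with 29665, 28521 and 26219 in shControl and 13614, 14279 and 13981 in shRNF25 for CCN1 and 573, 713 and 1185 in shControl and 2425, 2474 and 2580.3 in shRNF25 for CCN2. LTBP1 (1.26), FBN2 (1.08) and NPNT (0.79), a ligand of ITGA8, were the others called higher, and these with TNC and CCN1 were named after their values had been seen. TNXB has a partial copy, TNXA, so that its count is uncertain. FGB reached the filter on normalized counts in the shRNF25 libraries alone, so it was tested through the group where it is high. It is included in the count of ligands called higher.

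Of 40 tested genes for adaptor and focal adhesion proteins, which link integrins to actin and signalling, 2 were lower and 3 were higher, a total of 12.5% and thus near the 15.7% of all genes, with a median log2 fold change of -0.07. The adaptor CRK had 2386, 2141 and 2044 in shControl and 1338, 1334 and 1345 in shRNF25 (log2 fold change -0.71, limma adjusted p = 0.00176) and the kinase PTK2B, a relative of focal adhesion kinase, had 1159.6, 1406 and 1481 in shControl and 871, 807 and 801 in shRNF25 (-0.70, adjusted p = 0.00417), both lower in each shRNF25 library. TNS1, a tensin that binds the tail of β subunits, rose (1.44, adjusted p = 0.0122), with the focal adhesion protein KANK2 (0.73, adjusted p = 0.00136) and the talin TLN2 (0.64, adjusted p = 0.00708).

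Of 18 tested partners of laminin in the basement membrane, 1 was lower and 3 were higher (22.2%, beside 15.7% of all genes). The netrin NTN4, which binds laminin γ chains, had 2346, 2444 and 3430.0 in shControl and 1791, 1546 and 1566 in shRNF25 and fell (log2 fold change -0.73, standard error 0.154, limma adjusted p = 0.0102), a call that was lost without shControl replicate 3, shRNF25 replicate 2 or shRNF25 replicate 3, each of which left 0 genes of the list called lower, whereas 2 were called lower without shControl replicate 1. SPARC, a collagen-binding matricellular protein, had 9.95, 5.13 and 14.03 in shControl and 138, 111 and 109 in shRNF25 and rose without overlap (log2 fold change 3.57, standard error 0.327, limma adjusted p = 0.000167). FREM1 was called higher (3.16), with 1.11, 1.03 and 5.40 in shControl and 28.2, 23.1 and 26.7 in shRNF25. It reached the filter of 10 in the shRNF25 libraries alone, so it was tested through the group where it is high. NID2, a nidogen that bridges laminin and collagen IV (0.78), rose as well. Of 9 receptors for laminin that are not integrins, 1 was lower and 2 were higher (33.3%, beside 15.7% of all genes). MCAM, which binds LAMA4 laminins, fell (3688, 4117 and 3911 in shControl and 1318, 1293 and 1293 in shRNF25, log2 fold change -1.58, standard error 0.0971, limma adjusted p = 1.73e-05). SDC2, a syndecan, rose (105, 83.1 and 216 in shControl and 538, 689 and 656 in shRNF25, log2 fold change 2.33), and so did BCAM, a receptor for LAMA5 (1141, 1134 and 1151 in shControl and 2177, 2214 and 2045 in shRNF25, log2 fold change 0.91). DAG1, dystroglycan, was not called, at 8380.4, 7052 and 8145 in shControl and 8543, 9013 and 8773 in shRNF25.

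**Figure D5:**
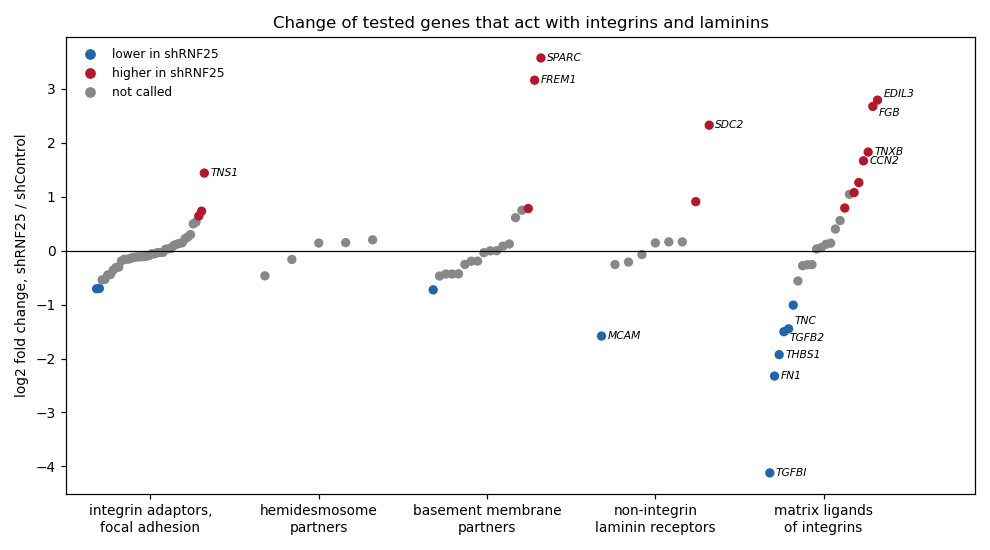
Log2 fold changes (y axis, shRNF25 over shControl) of the tested genes on 5 lists of genes that act with integrins and laminins, ordered by value within a list (x axis). Called genes past 1.4 on either side are named, and the matrix ligands hold 6 called lower and 7 called higher, against 2 and 3 of the 40 adaptors.

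Markers of other cell types were followed because some integrins and laminins are known from those cells. The 8 endothelial markers summed to 900.9 to 1446 normalized counts in shControl and 961.4 to 1146 in shRNF25. They moved in both directions: CDH5 had 72.96, 103 and 199 in shControl and 3.64, 8.31 and 5.72 in shRNF25 and KDR had 26.5, 29.8 and 17.3 in shControl and 88.4, 81.3 and 83.9 in shRNF25, while VWF and CLDN5 were at 12.95 or fewer in each library. The 8 fibroblast markers summed to 1108 to 1293 in shControl and 878.3 to 1027 in shRNF25, nearly all of it COL1A1, and DCN and COL1A2 were at 2.21 or fewer. The 4 platelet markers in the table summed to 67.7 to 89.5 in shControl and 64.6 to 70.2 in shRNF25, with PF4 and PPBP lower and GP1BA higher in shRNF25. CDH5, PF4 and PPBP reached the filter of 10 in the shControl libraries alone, so they were tested through the group where they are high. The part of these genes in the integrin and laminin results was not tested.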

How the data were processed

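Bulk RNA-seq of SW839 cells (3 shControl, 3 shRNF25 libraries) was analysed. The authors deposited 1 table of normalized counts, a signal per gene and library, made from reads counted on genes. The submitters' processing notes name fastp, HISAT2, HTSeq and GRCh38, and the study's methods name DESeq2, with its version, for differential expression. Versions of the other tools and the strand setting of the counting are not given in the sources used here. Whole reads were recovered from 100% of the deposited values (largest deviation 0.000212 reads), with size factors of 0.905 to 1.10.

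Libraries were assigned by their labels. With 1 added to each normalized count, log2 values of the 16554 genes that reached 10 in 3 or more libraries were fitted by limma 3.58.1 (lmFit, eBayes with a trend) in R 4.3.3, with Benjamini-Hochberg adjustment over all tested genes and no covariates. Fold changes are on that log2 scale, on which changes at few reads appear smaller. A call needed a 1.5-fold change or more with the adjusted p under 0.05. Shares and ratios were compared with two-sided exact permutation tests. Exon lengths and positions come from GENCODE 29 (GRCh38), matched by symbol, and promoters from RefSeq (GRCh38.p14). The fits were tested on simulated data.

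The genes and lists were chosen with earlier results of these data known. Named were the integrin and laminin genes reported, RNF25 and, of each list, up to 4 genes called lower and 4 called higher with the largest change; other names are marked. List symbols were matched exactly. Some genes, though fitted with the rest, are not reported here and are in no count of integrins, laminins or markers, and class shares were taken for the α and β classes only. Alternatives were pseudocounts of 5 and 0.5, no filter and a filter at 50, quantile normalization, rescaling on genes averaging 100 or more, edgeR 4.0.16 (TMM) and DESeq2 1.42.0 (both on the recovered reads), a block for the replicate number, library weights by group, other fold limits, the longest transcript as length, and each library left out in turn.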

Additional observations from a re-analysis of the deposited data

How the results depend on the processing

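Of the 9 called integrin and laminin genes, 4 (ITGA5, ITGA2, ITGB3 and ITGA10) kept their call under each of the alternative fits at the 1.5-fold limit. The others (ITGB6, LAMB3, LAMB1, LAMA2 and ITGAM) lost it under at least 1, and the cause was not tested. Of the 20 genes not called, 10 kept that and their sign under each of these fits. With a 2-fold limit ITGA2, LAMB3, LAMB1 and ITGAM were no longer called, and with no fold limit ITGAV, ITGB1 and LAMA3 were called lower as well. Of these 3, LAMA3 missed the adjusted p-value with the replicate block (0.0794).

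Integrins called higher numbered 1 instead of 2 with no filter, with a filter at 50, with DESeq2, with the replicate block, with library weights and with a 2-fold limit. Laminins called lower numbered 0 instead of 2 with quantile normalization or a 2-fold limit and 1 with rescaling on well-expressed genes, with edgeR and with DESeq2, and laminins called higher 0 instead of 1 with a filter at 50. Over all genes, 513 were lower and 893 higher with a 2-fold limit, 1785 were lower with no fold limit, and 898 were higher with a filter at 50, which tests fewer genes. Adaptors called lower numbered 0 and 5, with a 2-fold and with no fold limit, and adaptors called higher 1 with a 2-fold limit. Basement membrane partners called lower numbered 2 with no filter, 0 with a 2-fold limit and 2 with no fold limit.

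With each library left out in turn, integrins called higher numbered 1 to 2, laminins called lower 0 to 2, laminins called higher 0 to 2 and basement membrane partners called lower 0 to 2. Of all tested genes, 748 to 1725 were called higher and 813 to 1269 lower. Over the same fits ITGA7 had log2 fold changes of -0.092 to 0.27, ITGB8 of -0.094 to 0.40, ITGB4 of -0.40 to 0.13, LAMA5 of -0.017 to 0.33 and LAMB2 of -0.064 to 0.18. The sign changed without shControl replicate 1 for ITGA7, LAMA5 and LAMB2, without shRNF25 replicate 1 for ITGA7, and without shControl replicate 3 for ITGB8 and ITGB4. With quantile normalization ITGB4 was at 0.18 and LAMC1 at 0.060. Samples with the same replicate number did not deviate together (correlations of -0.064, -0.087 and 0.047). Deviations within 3 libraries a group cannot exclude that samples were handled in pairs. As a block, the replicate number gave 1193 lower and 1398 higher genes, and of the integrin and laminin calls only that of ITGAM was lost (adjusted p = 0.0559).

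All 77 alternatives of the 11 ratios and 229 of the 231 of the class shares moved by less than 1 SD. Leaving out 1 of 3 libraries cannot move a group mean by 1 SD, so that outcome was fixed in advance for those alternatives. With the longest transcript as length the difference in share was 0.412 percentage points for ITGA10 and -0.0532 for ITGB3. Genes under 10 normalized counts lie near the limit of what this depth can show, and intervals from 3 libraries a group are wide where the controls differ.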
